A study of Homo sapiens with 5 samples.

Results

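The regions described here are the places on chromosomes 1 to 22 and X where ZBTB7A peaks were called in VCaP cells under each of 3 culture conditions, and they are called core regions below. Overlapping peaks of the 3 peak lists were merged wherever they shared at least 1 bp, and a merged region was a core region when it held at least 1 peak from every list. There were 11424 core regions among 148985 merged regions, or 7.67% (95% exact Clopper-Pearson interval 7.53 to 7.80%). The conditions were DHT (10 nM of the androgen dihydrotestosterone over 4 hours, in a medium holding 5% serum stripped of hormones, 2 libraries), FBS (routine culture in 10% full serum, 1 library) and CSS (vehicle for 4 hours in the same depleted medium as DHT, 2 libraries). The labels attach 1 treatment text to all 5 libraries, so the reading of FBS as full serum with no DHT rests on the culture condition it names and on the series' design text. All groups are the same established cell line with no genetic change named in the labels.

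ZBTB7A, also called LRF or Pokemon, is a transcription factor that binds DNA through C2H2 zinc fingers and recruits corepressor complexes through its BTB domain. It is best known for silencing the fetal globin genes in adult red cells. VCaP cells come from a prostate cancer and make the androgen receptor, and the study asked where ZBTB7A sits on chromatin in these cells and whether androgen changes it. A place called in every condition is a candidate for hormone-independent occupancy, but it can also be a place that gives signal in any library, such as sequence that is repeated in the genome and present in few copies in the assembly. No list of such places was applied here, and no control library was analysed here.

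There was 1 peak list per condition, and therefore no spread between replicates and no test between conditions. Intervals are 95% intervals that cover counting error only, neighbouring regions are not independent, and the depth of the libraries is unknown. The fold enrichment and the −log10 q of a peak are the authors' values and describe a peak within its own list. Members were chosen by the presence of peak calls, which rest on q-values, so strength, width and summit position are given as descriptions without a test. Positions are on hg19, counted from 1, and were not assigned to genes, and no base sequence is shown, since no sequence or annotation of that build was used.

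Core regions took up 12787 of 33236 DHT peaks (38.5%, 37.9 to 39.0%), 13025 of 123651 FBS peaks (10.5%, 10.4 to 10.7%) and 12734 of 36674 CSS peaks (34.7%, 34.2 to 35.2%). A typical core region was a single site in each list: 8422 of the 11424 (73.7%, 72.9 to 74.5%) held exactly 1 peak of every list. The most divided region, on chromosome 17 from 31618545 to 31620440, held 4 DHT, 2 FBS and 4 CSS peaks. Core regions had a median width of 705 bp, with quartiles of 455 and 965 bp and a range of 215 to 3070 bp. Regions called in DHT and CSS only had a median width of 305 bp, and regions called in FBS only 249 bp. The median was 411 bp for regions called in DHT and FBS only and 425 bp for those called in FBS and CSS only. A merged region grows with every peak added to it, so part of this difference follows from the rule. At least 1000 bp was reached by 22.6% of core regions, against 0.514% of other regions and 2.21% of all merged regions.

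The peaks of the 3 lists mostly lay over each other but did not point to the same base. In 10647 core regions (93.2%, 92.7 to 93.7%) some stretch was covered by a peak of every list, with a median length of 198 bp. The remaining 777 regions were chains in which no base was shared by all lists. Summits, the positions of highest signal, of the strongest DHT and CSS peaks lay a median of 81 bp apart (79 to 84 bp). For FBS and DHT summits the median distance was 127 bp (123 to 130 bp), and for FBS and CSS summits 128 bp (125 to 131 bp). The 3 strongest summits spread over a median of 197 bp, with quartiles of 102 and 356 bp. Summits of all lists within 100 bp of each other were found in 2983 core regions (26.1%, 25.3 to 26.9%). In 3730 regions, each pair of lists had peaks that covered 50% or more of each other (32.7%, 31.8 to 33.5%).

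Few regions depended on links of 50 bp or less, although a limit of 50% overlap was met by the 3730 regions given above. The weakest link that still joined the lists was at most 10 bp in 38 core regions and at most 50 bp in 241. Just inside the rule, a region on chromosome 16 from 2961573 to 2962351 was joined by 1 bp, with a −log10 q of 4.06 in DHT, 5.98 in FBS and 2.50 in CSS. The same link of 1 bp joined the regions on chromosome 17 from 74706176 to 74706812 (5.60 in DHT, 3.71 in FBS, 3.63 in CSS) and on chromosome 19 from 18402414 to 18403783 (4.34 in DHT, 5.35 in FBS, 3.03 in CSS). None of these regions had a base common to the lists, and their ranks ran from 6306 to 11208 among the core regions of a list. Just outside it, a DHT peak adjoined a region of FBS and CSS on chromosome 17 from 1627701 to 1628129 with 0 bp between them. Its neighbour from 1628130 to 1628554, called in DHT and CSS, adjoined the FBS peak in the same way. A region of DHT and FBS on chromosome 18 from 2655153 to 2655642 likewise adjoined a CSS peak. Of 16553 regions called in exactly 2 lists, 574 (3.47%, 3.19 to 3.76%) had a peak of the missing list within 100 bp.

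Core peaks had higher medians than the other peaks of their list. By −log10 q the gap was widest in FBS, while by fold enrichment it was narrowest in FBS. The median −log10 q was 5.73 for core and 4.77 for other DHT peaks, 6.39 and 4.26 for FBS peaks, and 6.17 and 4.56 for CSS peaks. Median fold enrichment was 5.97 for core and 5.48 for other DHT peaks, 4.7955 and 4.53 for FBS peaks, and 6.13 and 5.28 for CSS peaks. The distributions overlapped widely in each list. Within the FBS list, core peaks were found mainly at the top: 40.7% (39.8 to 41.5%) of the strongest of 10 equal parts lay in core regions, 14.0% of the next part, and between 4.93 and 9.02% of the other parts. In DHT the share was 25.6% in the weakest part and 47.1% in the strongest, and in CSS 12.8% and 47.7%. In DHT and CSS the share changed little over the 4 strongest parts, between 46.1 and 47.6% in DHT and between 43.7 and 48.7% in CSS.

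**Figure D1:**
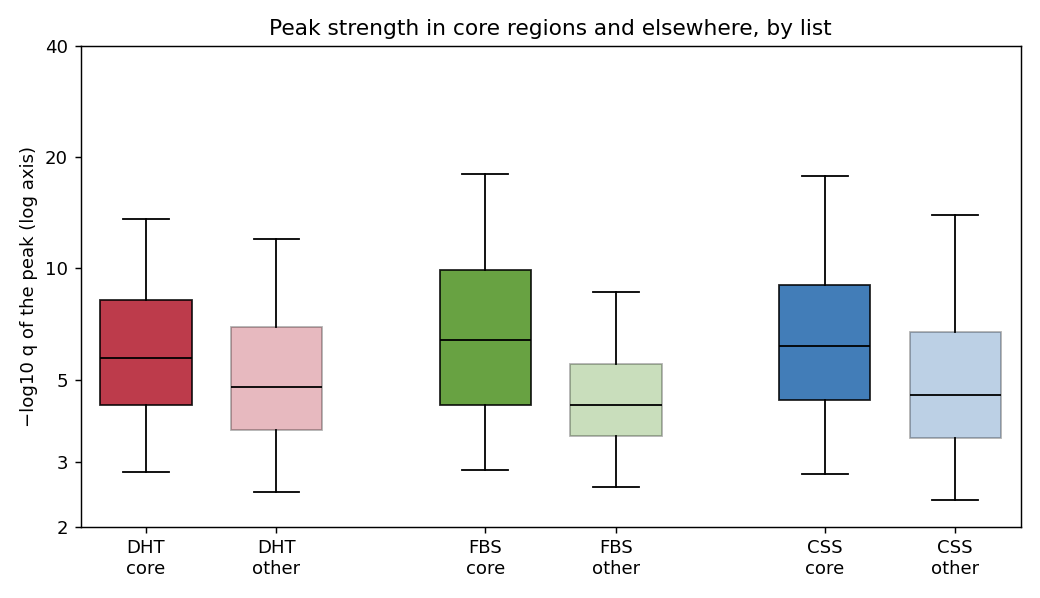
Box plots of the −log10 q of peaks (log axis) inside core regions (dark) and elsewhere (pale) in the DHT, FBS and CSS lists; lines are medians, boxes quartiles and whiskers the central 90% of peaks. Core peaks had the higher median in every list, 5.73 against 4.77 in DHT, 6.39 against 4.26 in FBS and 6.17 against 4.56 in CSS, with wide overlap.

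**Figure D2:**
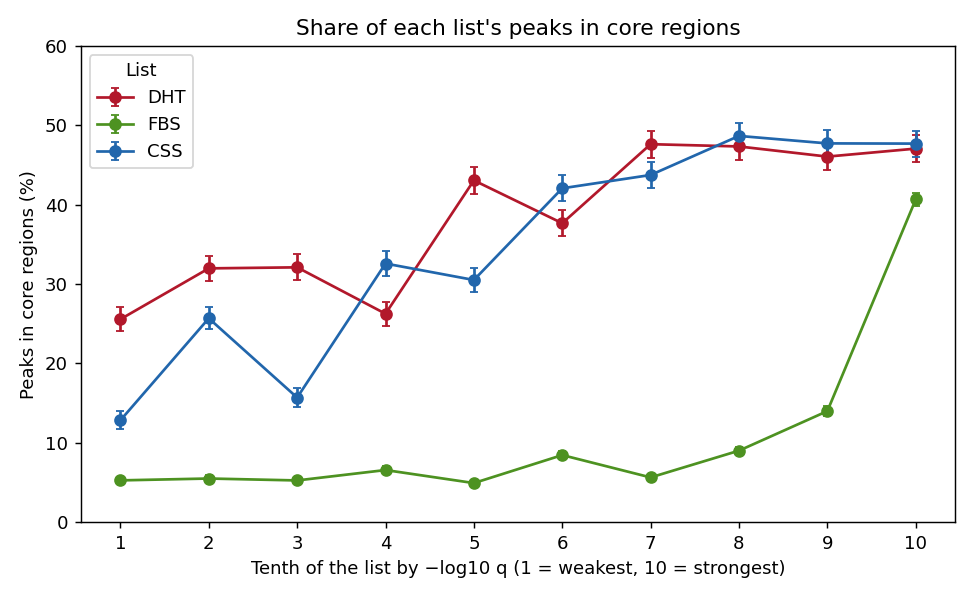
Percent of peaks that lie in core regions (y) for 10 equal parts of each list by −log10 q (x, weakest to strongest); bars are exact 95% intervals. The FBS share is 40.7% in the strongest part and 14.0% in the next, while the DHT and CSS shares level off at between 43.7 and 48.7% over the 4 strongest parts.

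In depleted medium, core regions had lower medians than regions called in DHT and CSS only, although the strongest peak of each list lay in a core region. Taking the strongest peak of each region, the median −log10 q was 6.07 in core regions and 6.64 in regions called in DHT and CSS only, both in the DHT list. In the CSS list the medians were 6.46 in core regions and 7.06 in regions called in DHT and CSS only. A −log10 q of at least 10 in CSS was reached by 2461 core regions (21.5%) and by 2519 of the 8656 regions called in DHT and CSS only (29.1%). It was reached by 1.44% of regions called in CSS only and by 14.9% of all regions with a CSS peak. In DHT the corresponding shares were 15.7% of core regions, 21.5% of regions called in DHT and CSS only, 1.79% of regions called in DHT only, and 12.3% of all regions with a DHT peak. In FBS, 3125 core regions (27.4%) passed this threshold, against 4.82% of all regions with an FBS peak and 1.89% of regions called in FBS only. The FBS share was 10.9% for regions called in DHT and FBS only and 9.80% for those called in FBS and CSS only. The calls that chose the regions rest on the same q-values, so these shares describe the regions and support nothing further.

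Strength in DHT and CSS went together across core regions, while the rank correlation of FBS with either was near 0. Ranked by −log10 q over the same 11424 regions, Spearman's rho was 0.48 between DHT and CSS, 0.04 between FBS and CSS, and 0.03 between FBS and DHT. These are descriptions across regions, which share their libraries and are not replicates, and the sources used here do not name the control library behind each list. Over the 23 chromosomes taken singly, rho between DHT and CSS lay between 0.39 and 0.70. Between FBS and CSS it lay between -0.22 and 0.24 and was negative on 10 chromosomes, and between FBS and DHT it lay between -0.22 and 0.27 and was negative on 14. Ranking by fold enrichment gave 0.45 for DHT and CSS, 0.11 for FBS and CSS, and 0.14 for FBS and DHT.

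The medians across the ranks were not monotonic between FBS and the other lists. In the strongest of 10 equal parts of the core regions by CSS, the median −log10 q was 11.8 in DHT, 5.04 in FBS and 18.2 in CSS. In the weakest part by CSS it was 4.67 in DHT, 5.93 in FBS and 3.03 in CSS. The FBS median was highest in the middle of the CSS ranking, at 7.66 in part 5, and lower at both ends. Ranked by FBS, the strongest part had a median −log10 q of 7.89 in DHT, 18.7 in FBS and 8.60 in CSS. The weakest part by FBS had 6.42 in DHT, 2.84 in FBS and 7.07 in CSS. The DHT median was lowest between these ends, at 5.50 in part 4, so a rank correlation near 0 here does not describe a flat relation. FBS peaks that were strong were also wide, with a median peak width of 728 bp in the strongest part by FBS and 251 bp in the weakest.

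**Figure D3:**
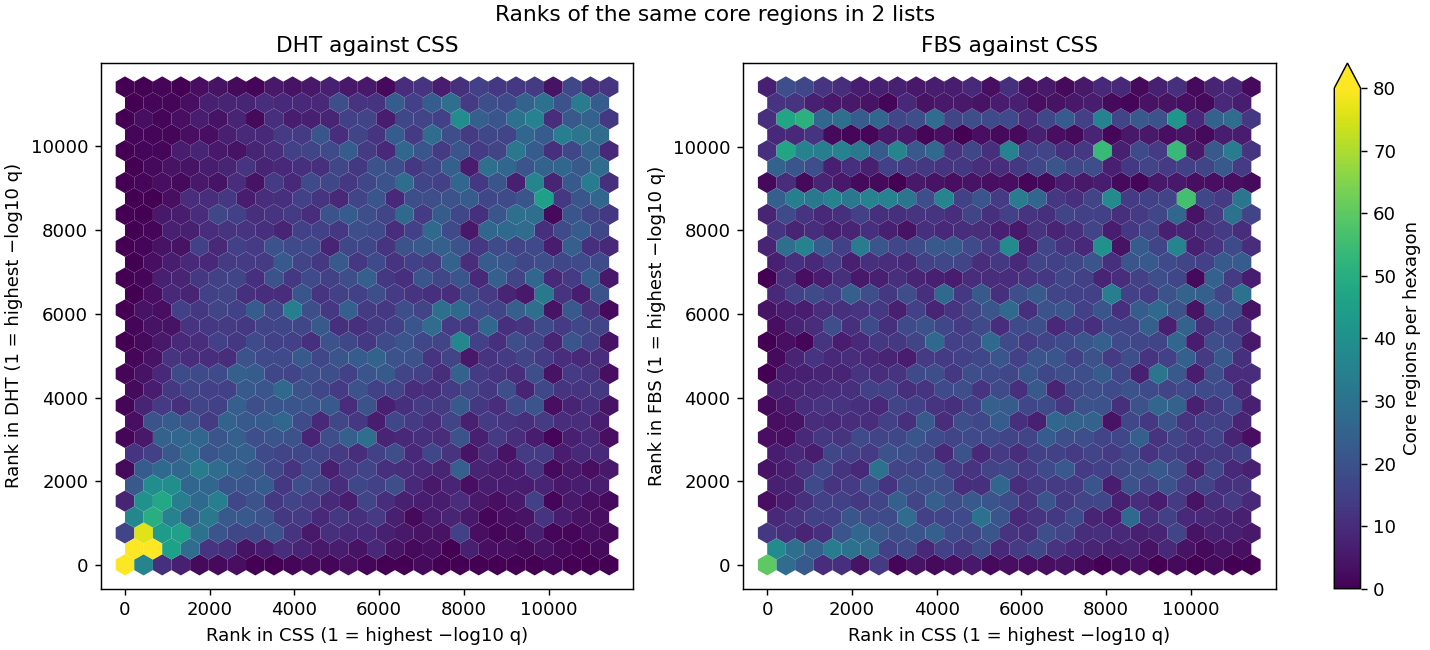
Density of core regions by rank of −log10 q (1 is the highest) in DHT (y) against CSS (x) on the left, and in FBS (y) against CSS (x) on the right; colour gives regions per hexagon. The left panel is densest along the diagonal and at the strongest ranks (rho 0.48), the right panel shows no diagonal but a dense corner at the strongest ranks (rho 0.04), and its horizontal bands are tied q-values in FBS.

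The rank agreement with FBS differed between the closest and the most distant summits but showed no steady trend between them. Where the strongest summits spread over less than 50 bp (950 regions), rho was 0.58 between DHT and CSS, 0.25 between FBS and CSS and 0.21 between FBS and DHT. Where they spread over 400 bp or more (2330 regions), it was 0.60, -0.15 and -0.11 for the same pairs. In the groups at 50 to 100, 100 to 200 and 200 to 400 bp, it was 0.07, 0.07 and 0.08 between FBS and CSS, and 0.02, 0.03 and 0.14 between FBS and DHT. Among regions whose peaks covered 50% or more of each other in each pair, the values were 0.47, 0.22 and 0.16. The median −log10 q in FBS was 5.87 in the group with summits within 50 bp and 7.49 in the group with summits at least 400 bp apart, and the regions had median widths of 376.5 and 1070 bp.

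The strongest regions by DHT and by CSS overlapped more than those by FBS did with either. Each strongest part holds 10% of the core regions. Of the 1142 core regions in the strongest of 10 equal parts by DHT, 585 (51.2%) were in the same part by CSS. Of those in the strongest part by FBS, 245 (21.5%) were in the strongest part by CSS and 268 (23.5%) in that by DHT, and 182 regions (15.9%) were in the strongest part of every list, so most of the strongest FBS regions lay outside the strongest part by CSS, and most lay outside that by DHT. A −log10 q of at least 10 in every list was reached by 394 core regions (3.45%), at least 20 by 67 and at least 30 by 20. In 6136 core regions (53.7%) no list reached 10, so more core regions were called at modest strength everywhere than were strong anywhere. FBS alone passed 10 in 2162 regions, CSS alone in 950 and DHT alone in 480.

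The 10 core regions with the best ranks across lists ranked 21 or better in every list. The first in every list was the region on chromosome 1 from 121483937 to 121485551, with a −log10 q of 219 in DHT, 259 in FBS and 229 in CSS. The region on chromosome 3 from 196625496 to 196625935 ranked next in every list, with a −log10 q of 110.2 in DHT, 128 in FBS and 132 in CSS. Its fold enrichment was the highest of the core regions in all lists, at 29.1 in DHT, 23.1 in FBS and 30.2 in CSS. Both regions had nearly the same summit in each list, spread over 54 bp on chromosome 1 and 12 bp on chromosome 3. Ranked 3 in each list, the region on chromosome 19 from 27731837 to 27732427 had 106 in DHT, 120.05 in FBS and 112 in CSS.

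Other members of this group combined an extreme q-value with a modest fold enrichment. On chromosome 10, the region from 42596726 to 42597301 had a −log10 q of 105 in DHT, 105 in FBS and 110.1 in CSS, at a fold enrichment of 7.40 in DHT, 5.85 in FBS and 6.68 in CSS. Its neighbour from 42599076 to 42600467 had 88.2 in DHT, 100.7 in FBS and 91.3 in CSS, at a fold enrichment of 6.72 in DHT, 5.71 in FBS and 6.04 in CSS. The region on chromosome 7 from 61968617 to 61969716 had 65.8 in DHT, 113 in FBS and 106 in CSS, at 5.85-fold in DHT, 6.15-fold in FBS and 5.78-fold in CSS. Over all core regions the median fold enrichment was 6.15 in DHT, 4.87 in FBS and 6.34 in CSS. The region on chromosome 21 from 9825412 to 9826455 was of this kind too, with a −log10 q of 47.3 in DHT, 67.5 in FBS and 72.5 in CSS at 7.96-fold in DHT, 7.21-fold in FBS and 7.9997-fold in CSS.

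The remaining members had high values of both kinds. The region on chromosome 21 from 11186050 to 11186989 had a −log10 q of 40.2 in DHT, 86.3 in FBS and 55.8 in CSS. The region on chromosome 1 from 91852694 to 91853258 had 36.9 in DHT, 90.9 in FBS and 53.0 in CSS, and the region on chromosome 17 from 79935498 to 79936101 had 54.4 in DHT, 93.8 in FBS and 50.1 in CSS. Their fold enrichments lay between 13.0 and 21.3 in the 3 lists.

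Many of the top regions lay beside a long stretch of their chromosome that held no peak in any list. Only stretches between successive peaks were measured. A stretch before the first or after the last peak of a chromosome was not counted, so regions beside one count as not near. On 19 of the 23 chromosomes the longest measured stretch was at least 1 Mb, as at centromeres, whose sequence was left out of this assembly. Of the 10 best-ranked core regions, 6 lay within 1 Mb of such a stretch, and 3 of them formed its edge. Chromosomes 13, 14, 15 and 22 had no stretch of at least 1 Mb between peaks, so nearness was not measured there and their regions count as not near one. Of the best-ranked 100, 29 lay within 1 Mb of a measured stretch (29.0%, 20.4 to 38.9%), against 236 of all 11424 core regions (2.07%, 1.81 to 2.34%) and 1.25% of all merged regions. Sequence flanking centromeres is rich in repeats, and how much of the signal there is binding was not tested.

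Not counting regions within 1 Mb of a measured stretch, 105 core regions had 1 peak of each list, a −log10 q of at least 10 in each and all summits within 100 bp. This set was chosen after its values were seen. The best-ranked of them not yet named lay on chromosome 22 from 18879821 to 18880221, with a −log10 q of 30.3 in DHT, 69.1 in FBS and 48.4 in CSS and summits within 4 bp. The next lay on chromosome 21 from 9826754 to 9827588, with 38.3 in DHT, 72.0 in FBS and 44.1 in CSS and summits within 19 bp. A further one on chromosome 22 from 16861464 to 16861853 had 27.1 in DHT, 44.4 in FBS and 38.2 in CSS and summits within 7 bp. All 3 were picked by their rank within a set that already required strong peaks and close summits. Nearness was not measured on chromosome 22. The region on chromosome 21 lay about 1359400 bp from the measured stretch of its chromosome. Its distance from any stretch before the first peak of the chromosome was not measured. Its fold enrichment was modest, at 7.11 in DHT, 7.30 in FBS and 6.13 in CSS.

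Some core regions were strong in 1 list and marginal in the others. The core region ranked highest in DHT relative to the other lists lay on chromosome 10 from 89742867 to 89743156, with a −log10 q of 14.7 in DHT, 2.84 in FBS and 2.49 in CSS. The corresponding FBS region lay on chromosome X from 153402121 to 153402680, with 3.34 in DHT, 19.2 in FBS and 2.25 in CSS. The corresponding CSS region lay on chromosome 11 from 45123080 to 45123825, with 3.15 in DHT, 2.84 in FBS and 18.5 in CSS. The next regions by the same rule had similar values. The DHT ones were at 3808440 to 3809145 of chromosome 1 (15.6 in DHT) and at 6509011 to 6509289 of chromosome 9 (13.3 in DHT). The FBS ones were at 75018123 to 75019005 of chromosome 15 (26.8 in FBS) and at 100905205 to 100906056 of chromosome 8 (24.5 in FBS). The CSS ones were at 140462772 to 140463373 of chromosome 7 (20.5 in CSS) and at 524745 to 525252 of chromosome 19 (22.8 in CSS). In the lists where these regions were not high, their −log10 q was at most 4.16.

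The widest core regions were mostly in 1 block of chromosome 8. Of the 5 widest, 4 lay on its long arm, at 86814283 to 86817352, 86573315 to 86576319, 86786815 to 86789813 and 86756329 to 86759209. They measured between 2881 and 3070 bp. The fifth lay on chromosome 7 from 56438122 to 56440747 and measured 2626 bp, with a −log10 q of 8.85 in DHT, 15.7 in FBS and 17.3 in CSS. The block around these 4 regions, taken after their positions were seen, ran from 86554857 to 86840914 and held 14 core regions, 18 regions called in FBS only and 0 of any other class. It held 9 of the 52 core regions of at least 2000 bp.

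By −log10 q, though not by fold enrichment, core regions of this block were strong in depleted serum and moderate in full serum. Their −log10 q lay between 13.3 and 29.0 in DHT (median 20.4), between 7.51 and 21.1 in FBS (median 11.8) and between 28.0 and 49.1 in CSS (median 38.2). Among all core regions their median rank was 136.5 in DHT, 2238 in FBS and 52 in CSS. Fold enrichment was low for such q-values, at medians of 5.21 in DHT, 3.44 in FBS and 5.69 in CSS. These lay below the medians over all core regions, 6.15 in DHT, 4.87 in FBS and 6.34 in CSS. The starts of the last 4 regions were 12.175, 12.209 and 12.173 kb apart, and the regions before them were less evenly spaced. The region from 86826492 to 86829112 had 3 peaks in each list, which made it 1 of the 3 core regions with the most peaks, beside the region on chromosome 17 named above and a region on chromosome 15 from 81292742 to 81295097 with 3 DHT, 4 FBS and 2 CSS peaks. Whether the even spacing reflects repeated sequence was not tested.

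**Figure D4:**
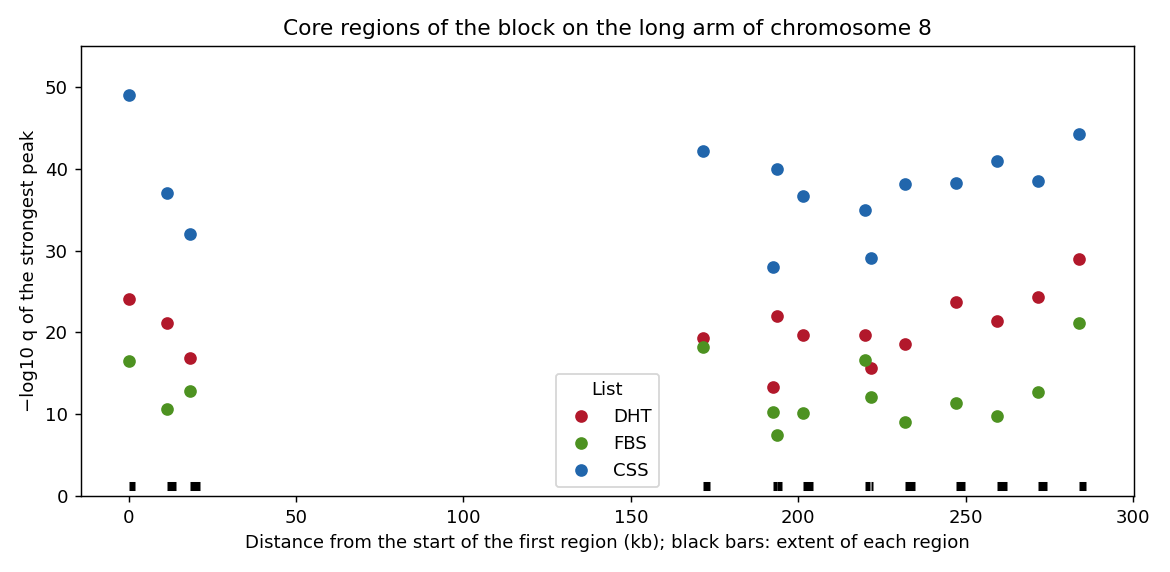
The −log10 q of the strongest DHT, FBS and CSS peak (y) in the 14 core regions of the block on the long arm of chromosome 8, by distance in kb from the start of the first region (x); black bars give each region's extent. Values run from 28.0 to 49.1 in CSS, from 13.3 to 29.0 in DHT and from 7.51 to 21.1 in FBS. Their levels are not comparable between lists. The last 4 regions start about 12.2 kb apart.

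The share of depleted-serum sites that were core regions differed between chromosomes. Of 20080 regions called in both DHT and CSS, 56.9% were also called in FBS and so were core regions. The share was lowest on chromosome X, at 189 of 562 (33.6%, 29.7 to 37.7%), against 57.6% on the autosomes, which is -23.9 points apart (-27.8 to -19.9 by Newcombe's method). On chromosome 16 it was 46.4% (41.6 to 51.2%), which was 11.4 points below the other autosomes (difference -11.4, -16.1 to -6.64). It was highest on chromosome 15, at 66.6% (62.9 to 70.1%), with a difference of 9.33 points (5.65 to 12.8) from the other autosomes, and on chromosome 8, at 64.3% (61.1 to 67.4%), with a difference of 7.05 points (3.81 to 10.18). These chromosomes were singled out after their values were seen, and the intervals are not adjusted for that choice. Over the 23 chromosomes, the share rose with the number of FBS-only regions per region called in DHT and CSS (Spearman's rho 0.68, a description).

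As a ratio of the chromosome's share of core regions to its share of regions called in DHT and CSS only, the interval lay above 1 on 7 chromosomes and below 1 on 6 of 23. The ratio was 0.384 (0.321 to 0.459) on X, 0.656 (0.540 to 0.796) on 16 and 1.51 (1.28 to 1.78) on 15. By arm, the core share of DHT and CSS regions on chromosome 8 was 68.1% (64.4 to 71.7%) for the long and 54.0% (47.6 to 60.4%) for the short arm. On chromosome 11 it was 66.5% (62.998 to 69.9%) for the long and 56.4% (50.8 to 61.8%) for the short arm. On X it was 31.3% for the long and 36.8% for the short arm, so the low share of X held on both arms. Against regions called in FBS only, core regions took a larger share on chromosome 19 (ratio 1.56, 1.39 to 1.74), 22 (1.41, 1.21 to 1.64) and 16 (1.31, 1.13 to 1.52), and a smaller share on chromosome 8 (0.730, 0.669 to 0.794) and 21 (0.754, 0.650 to 0.870).

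**Figure D5:**
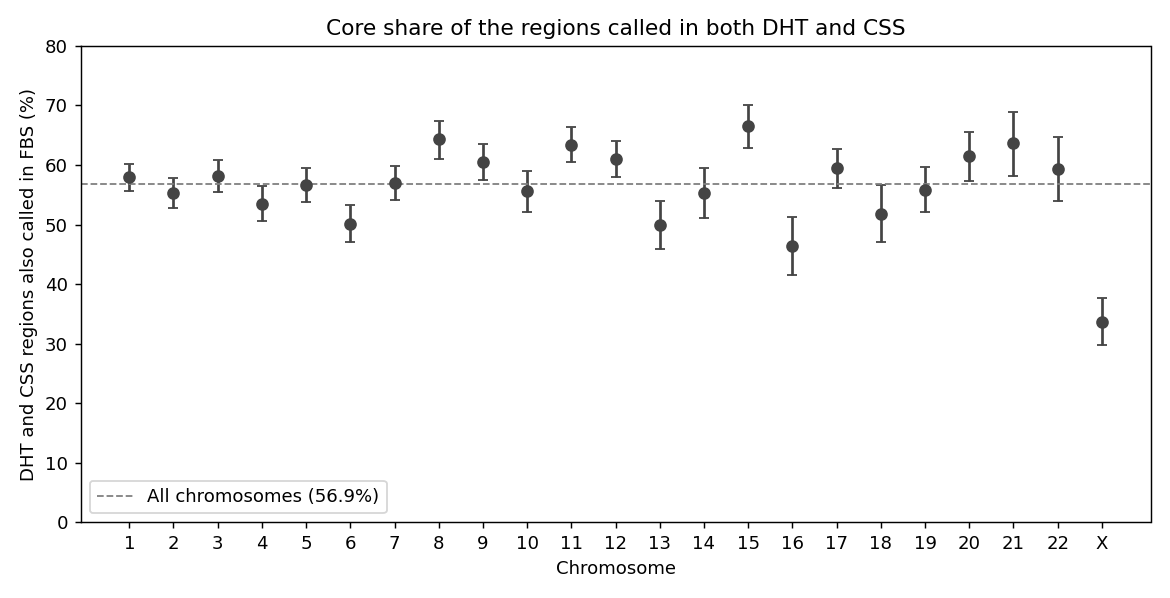
Percent of regions called in both DHT and CSS that were also called in FBS (y) by chromosome (x), with exact 95% intervals and the share over all chromosomes as a dashed line. Chromosome X, at 33.6%, lies below every autosome, and chromosome 15, at 66.6%, is the highest.

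The share followed the local density of FBS peaks and the width of the site. In 5 groups of DHT and CSS regions by the number of FBS-only regions in their 1 Mb window, the core share was 40.1%, 54.4%, 60.6%, 62.5% and 67.03% in order of density, with a median of 13 FBS-only regions in the sparsest and 78 in the densest windows. By the width of the DHT and CSS peaks together, it was 29.9% in the narrowest of 10 equal parts, 82.2% in part 9 and 71.8% in the widest. By strength in DHT and CSS it was 58.0% in the weakest of 10 equal parts, 61.9% in part 3 and 49.8% in the strongest. In 3 equal parts by strength, it was 50.7% in the strongest and 60.3% in the weakest. Within 3 equal parts by width, it was 32.1% for the strongest and 38.5% for the weakest sites of the narrowest part, 51.1% and 63.5% in the middle part, and 63.5% and 86.6% in the widest part. In the sparsest windows it was 38.5% for the strongest and 43.6% for the weakest sites. In the next groups, in order of density, it was 44.8% and 58.6%, 52.0% and 64.4%, and 50.9% and 67.1%. In the densest windows alone the strongest sites did not have the lower share, at 66.4% for the strongest and 65.9% for the weakest. A wide site or a dense window offers more room for an overlap, and these shares carry no test because they rest on the same calls as the rule. With an FBS summit within 100 bp of the CSS summit in place of an overlap, the shares were 23.3% in the strongest and 24.7% in the weakest of 3 parts, and 26.5% in the densest and 22.2% in the sparsest windows.

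The lower share on chromosome X was seen within width classes and within sparse windows. In 3 equal parts by width it was 22.5% on X against 35.4% on the autosomes in the narrowest, 35.5% against 60.5% in the middle and 52.6% against 76.4% in the widest part. The differences were -12.9 points (-17.7 to -7.30), -25.04 points (-32.0 to -17.5) and -23.8 points (-32.2 to -15.5). Of the X regions, 79.0% lay in the sparsest group of windows, where the share was 29.955% on X and 41.4% on the autosomes (difference -11.4 points, -15.8 to -6.71). With an FBS summit within 100 bp of the CSS summit, it was 17.1% on X and 24.96% on the autosomes (difference -7.87 points, -10.8 to -4.49). Chromosome X held 1.60% of FBS-only regions and 4.31% of regions called in DHT and CSS only. The part of chromosome copy number and coverage in this was not tested.

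Core regions were spread over most of the genome, with a few crowded stretches. A core region was present in 2537 of 2887 windows of 1 Mb that held any region, at a median of 3 per window. The gap to the nearest other core region had a median of 61109 bp, and 507 core regions (4.44%) had another within 1000 bp. The most crowded windows were adjacent on the long arm of chromosome 11. From 63000001 to 68000000, the 5 windows held 23, 40, 32, 28 and 26 core regions, or 149 in all (1.30% of core regions). In this stretch, 149 of 180 DHT and CSS regions were core regions (82.8%, 76.5 to 88.0%), against 59.5% on the rest of the chromosome. It also held 450 regions called in FBS only. Over all chromosomes, the share in the densest group of windows was 67.03% at all widths and 81.7% for the widest of 3 parts. That group includes windows of the stretch itself, and the share of the stretch was not split by width. Whether the high share is particular to the stretch was therefore not tested. The stretch was chosen after its counts were seen.

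Core regions of the chromosome 11 stretch were wide, and their median −log10 q lay above that of all core regions in every list. Among all core regions their median rank was 2891 in DHT, 2657 in FBS and 2643 in CSS. Their median −log10 q was 8.45 in DHT, 10.9 in FBS and 9.65 in CSS, against 6.07 in DHT, 6.74 in FBS and 6.46 in CSS over all core regions. Their median width was 1015 bp, and 36 of them passed a −log10 q of 10 in every list. The best-ranked lay from 63535053 to 63536085, with a −log10 q of 31.6 in DHT, 47.3 in FBS and 31.7 in CSS. Further windows rich in core regions were at 111000001 to 112000000 of chromosome 13 (24 core regions), at 21000001 to 22000000 of chromosome 22 (21) and at 179000001 to 180000000 of chromosome 5 (21). The window at 42000001 to 43000000 of chromosome 10 and that at 27000001 to 28000000 of chromosome 2 held 20 each. The window on chromosome 10 held only 15 FBS-only regions and contains the pair of extreme q-values described above.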

How the data were processed

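ZBTB7A ChIP-seq peaks in VCaP cells were used as 3 deposited narrowPeak lists, 1 per condition. The submitters' processing notes name MACS2 2.0.10.20131216, BWA 0.7.2-r351 and the build hg19 (GRCh37), and, per the same notes, SAMtools 0.1.18. What control and threshold were used, and how libraries were combined, the sources used here do not say. The authors deposited for every peak a fold enrichment (a ratio), a −log10 q and a score (not used). Depth and control influence these values, so they rank peaks within a list only.

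Peaks on chromosomes 1 to 22 and X sharing at least 1 bp were merged, and the strongest peak by −log10 q stood for a list in a region. Shares have Clopper-Pearson, differences Newcombe and ratios exact conditional binomial intervals. Merging recovered 17495 of 17495 regions planted in simulated data, and bedtools 2.31.1 gave the same number of regions from the real lists, 148985. The planted peaks of a region always overlapped and the regions lay far apart. The simulation therefore did not test chains, short links or adjoining peaks. Tables were made in Python 3.11.15 with pandas 2.3.3, intervals with scipy 1.17.1, and figures with matplotlib 3.10.9 and numpy 2.4.6.

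The regions and choices were made with earlier results of these data known. Regions named are the 10 with the best lowest rank over the lists, the 5 widest, the 3 with the most peaks, the 3 nearest the rule on either side and the 3 relatively highest in each list; others were chosen after their values were seen. Counts by gene annotation, motif or gene list were left out, because they need hg19 sequence or annotation, not used here.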

Additional observations from a re-analysis of the deposited data

Results flagged for a closer look

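The regions below lie on sequences other than chromosomes 1 to 22 and X and were not part of the regions described. Each count of regions called in DHT, FBS and CSS is above 3, which is the only criterion for listing and does not tell binding from background.

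On chromosome Y, 55 of 652 merged regions were called in all 3 lists. On alternate haplotype sequences 50 of 935 were, and on unplaced and unlocalized contigs 68 of 670 were. Of the regions called in both DHT and CSS, those also called in FBS were 35.3% on chromosome Y, 17.1% on alternate haplotypes and 68.0% on the contigs, against 56.9% on chromosomes 1 to 22 and X.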

How the results depend on the processing

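No library could be left out, since each condition has 1 list. No paired analysis was possible because CSS and DHT share library numbers but have 1 list each, so their libraries cannot be separated. Depth is unknown. Leaving out regions near peak-free stretches and taking only close summits for the rank agreement were chosen after seeing the data. No rho or chromosome ratio changed direction. A count is given below if it moved by over 1.5 times, a share, distance or ratio if it left its 95% interval, and rho if it moved by over 0.1; intervals of shares are narrow, so small moves are listed too. The cause was not tested beyond the number of regions each setting keeps.

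The 11424 core regions became 2983 with all summits within 100 bp, 3730 with 50% overlap in every pair, 4029 at −log10 q of at least 5, 394 at 10, 4027 at fold of at least 5 and 6736 with equal numbers of top peaks. The shares that follow are of all peaks of a list at the summit and 50% overlap settings. At the −log10 q and fold settings and with equal numbers of top peaks, they are of the peaks that the setting kept. In the same order of settings, the share of DHT peaks in them was 9.55, 11.6, 24.1, 10.4, 18.2 and 23.1%, and that of CSS peaks 8.63, 10.547, 24.0, 7.84, 18.7 and 23.03%. Without the fold setting, where it did not move, that of FBS peaks was 2.56, 3.21, 8.83, 6.99 and 21.9%. Median summit distances between DHT and CSS were 33, 50, 75, 38, 75 and 92 bp, between FBS and CSS 42, 69, 134, 90, 122 and 143 bp, and between FBS and DHT 41, 67, 131, 74.5, 121 and 143 bp.

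With a base common to all lists, merging up to 500 bp, and no regions of at least 1000 bp, the DHT share was 36.0, 44.1 and 27.9%, the FBS share 9.82, 13.9 and 7.58%, and the CSS share 32.4, 40.6 and 25.5%. Summit distances were 76, 91.5 and 70 bp for DHT and CSS, 120 (FBS and CSS), 161 and 107 bp, and 119 (FBS and DHT), 161 and 105 bp. Without regions near the measured peak-free stretches the shares were 37.7% in DHT, 10.3% in FBS and 34.0% in CSS. At −log10 q of at least 5 the ratio for X was 0.268 and for chromosome 16 0.484. By fold, rho between FBS and DHT was 0.14. Among regions with 50% overlap in every pair, rho by −log10 q was 0.22 between FBS and CSS and 0.16 between FBS and DHT. Counts by annotation, motif and gene list were not run.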
